A study of Mus musculus with 5 samples.

Results

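The Rab genes encode small GTPases of membrane traffic. The 59 genes described here were the protein-coding genes of the deposited table whose symbol is Rab followed by a number and at most a letter and a further digit, out of 55487 genes in all and 21936 protein-coding genes. The rule uses their names and no measured value, although the family was proposed with earlier results of these data known. RNAseq was run on viable macrophages sorted as CD45+ and F4/80+ from the aortas of male mice, and the paper's methods add CD11b to the gate. All mice lacked *Apoe*. They ate chow until 8 weeks of age, followed by 10 weeks of Western diet, and were 18 weeks old at the end. The 2 libraries labelled WT, here *Zeb1*WT/*Apoe*KO, came from mice with floxed *Zeb1* and no Cre. The 3 libraries labelled KO, here *Zeb1*∆M/*Apoe*KO, came from mice in which Cre expressed from *Lyz2* (LysM-Cre) deletes floxed *Zeb1* in myeloid cells, so that any cell of the gate without *Lyz2* activity keeps the gene. Macrophages of 3 mice were pooled for each genotype and condition. The study calls its replicates biologically independent, but the labels do not tie the libraries to mice or pools. P-values measure the spread between these libraries, which may in part be technical.

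A Rab protein is a switch. Bound to GTP and held in a membrane by its prenyl groups, it recruits effectors that move, tether or fuse vesicles, and after hydrolysis of GTP the GDI proteins take it back to the cytosol. RAB5 proteins act on early endosomes, RAB7 and RAB9 on late endosomes and lysosomes, RAB4, RAB11 and RAB14 on recycling to the surface, RAB1, RAB2 and RAB6 between the endoplasmic reticulum (ER) and the Golgi, and RAB3, RAB8, RAB10 and RAB27 on secretion. Macrophages rely on these routes to take up lipoproteins and dying cells and to return receptors and lipid transporters to the surface.

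The libraries differed widely in how many genes were well counted. Total counts ranged from 20118545 to 50649912, which puts the floor of 3 counts used here at 0.0592 to 0.149 CPM (counts relative to the library total). Floors cover counting error only, since PCR copies of a molecule are counted as separate reads. *Zeb1*∆M/*Apoe*KO replicate 1 had 11272 protein-coding genes above 3 counts but only 750 at 100 counts or more, against 2924 to 4079 at 100 or more in *Zeb1*WT/*Apoe*KO replicate 2 and *Zeb1*∆M/*Apoe*KO replicates 2 and 3. *Zeb1*WT/*Apoe*KO replicate 1 had 1555. Olfactory receptor genes, most of which are known from sensory neurons of the nose, were taken as a low-count reference after seeing the data, and numbered 1103. In *Zeb1*∆M/*Apoe*KO replicate 1, 37.2% of them had more than 3 counts, against 10.7% in *Zeb1*WT/*Apoe*KO replicate 1 and 1.09% to 3.08% in the other 3 libraries. *Zeb1*∆M/*Apoe*KO replicate 1 also held 8030 CPM of 4 hemoglobin genes, against at most 3.73 CPM elsewhere. The summed level of 12 macrophage markers was 32500 to 43200 CPM in all libraries, with *Lyz2* at 161607 counts or more, but *Cd68* had 0 and 10 counts in the replicates numbered 1 and *Itgam*, which encodes CD11b, had 0 in *Zeb1*∆M/*Apoe*KO replicate 1. In that library *C1qb*, *Ctss* and *Lyz2* made up most of the sum, at 16400, 9370 and 6630 CPM. *Csf1r*, *Cd14* and *Mrc1* had 25, 33 and 24 counts there, and *C1qa* and *Fcgr1* had 5 and 2. The markers at 100 counts or more numbered 5 of 12 in it, 9 in *Zeb1*WT/*Apoe*KO replicate 1 and 11 or 12 in the others. T cell markers summed to 3650 CPM in *Zeb1*WT/*Apoe*KO replicate 2, 565 and 987 CPM in *Zeb1*∆M/*Apoe*KO replicates 2 and 3, and at most 10.6 CPM in the replicates numbered 1. Neutrophil markers summed to 138 to 3590 CPM, lowest in *Zeb1*∆M/*Apoe*KO replicate 3 and highest in *Zeb1*WT/*Apoe*KO replicate 1. Of these markers *Ly6g* had at most 1 count in any library. In *Zeb1*∆M/*Apoe*KO replicate 1 nearly all of the sum was *S100a8*, with *S100a9* at 0. Smooth muscle, adipocyte and B cell markers were at or near 0. Fibroblast markers summed to 531 CPM in *Zeb1*∆M/*Apoe*KO replicate 2, nearly all from *Dcn* with 19005 counts, and to at most 0.944 CPM elsewhere. Endothelial markers summed to 51.9 to 72.3 CPM in the libraries of *Zeb1*WT/*Apoe*KO and in replicate 3 of *Zeb1*∆M/*Apoe*KO, and to at most 2.38 CPM in the others. Each of the higher sums came nearly all from a single gene. This was *Kdr* in *Zeb1*WT/*Apoe*KO replicate 1 (1455 counts), and *Pecam1* in *Zeb1*WT/*Apoe*KO replicate 2 (2487) and *Zeb1*∆M/*Apoe*KO replicate 3 (2628). *Cdh5* had 0 counts in every library. *Zeb1* had 0 counts in 4 libraries and 22 in *Zeb1*∆M/*Apoe*KO replicate 1, so it did not check the genotype labels, and the part of these differences in the results below was not tested. In bulk samples, fewer cells of a type and less RNA per cell cannot be told apart.

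The first question was which Rab genes were detected in all 5 libraries. With more than 3 counts as detection, 3 of the 59 were, namely *Rab11a*, *Rab11b* and *Rab14*, and all of them act in recycling. This is 5.08% of the Rab genes, near the 4.34% of all protein-coding genes that met the same criterion. At 10 counts or more in every library 2 remained, *Rab11b* and *Rab14*, since *Rab11a* had 7 and 6 counts in the replicates numbered 1. None of the early endosome, late endosome and lysosome, ER and Golgi or secretion Rabs was detected in all 5. No Rab gene had 100 counts or more in every library, a level reached by 1.26% of protein-coding genes.

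*Rab11a*, which directs cargo through the perinuclear recycling compartment, had 7 and 5281 counts in *Zeb1*WT/*Apoe*KO and 6, 13556 and 31548 in *Zeb1*∆M/*Apoe*KO. *Rab11b*, its close paralog, had 28 and 5116 counts in *Zeb1*WT/*Apoe*KO and 15, 5349 and 5670 in *Zeb1*∆M/*Apoe*KO. *Rab14*, which works between the trans-Golgi network, endosomes and phagosomes, had 56 and 8038 counts in *Zeb1*WT/*Apoe*KO and 36, 28189 and 969 in *Zeb1*∆M/*Apoe*KO. In each case the replicates numbered 1 of both genotypes were low and the other 3 libraries were high, so that the genotypes overlapped. The low values of *Zeb1*∆M/*Apoe*KO replicate 1 lay within the range of its olfactory receptor genes, whose 95th percentile there was 27 counts and whose 99th was 57. When a Rab gene had to exceed the 99th percentile of counts per kilobase of the olfactory receptor genes in the same library, a criterion added after seeing the data, 0 of 59 were detected in all 5 libraries and 3 in 4 libraries. Without both replicates numbered 1, 10 Rab genes had more than 3 counts in each of the remaining 3 libraries, and these included *Rab11a*, *Rab11b* and *Rab14*.

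**Figure D1:**
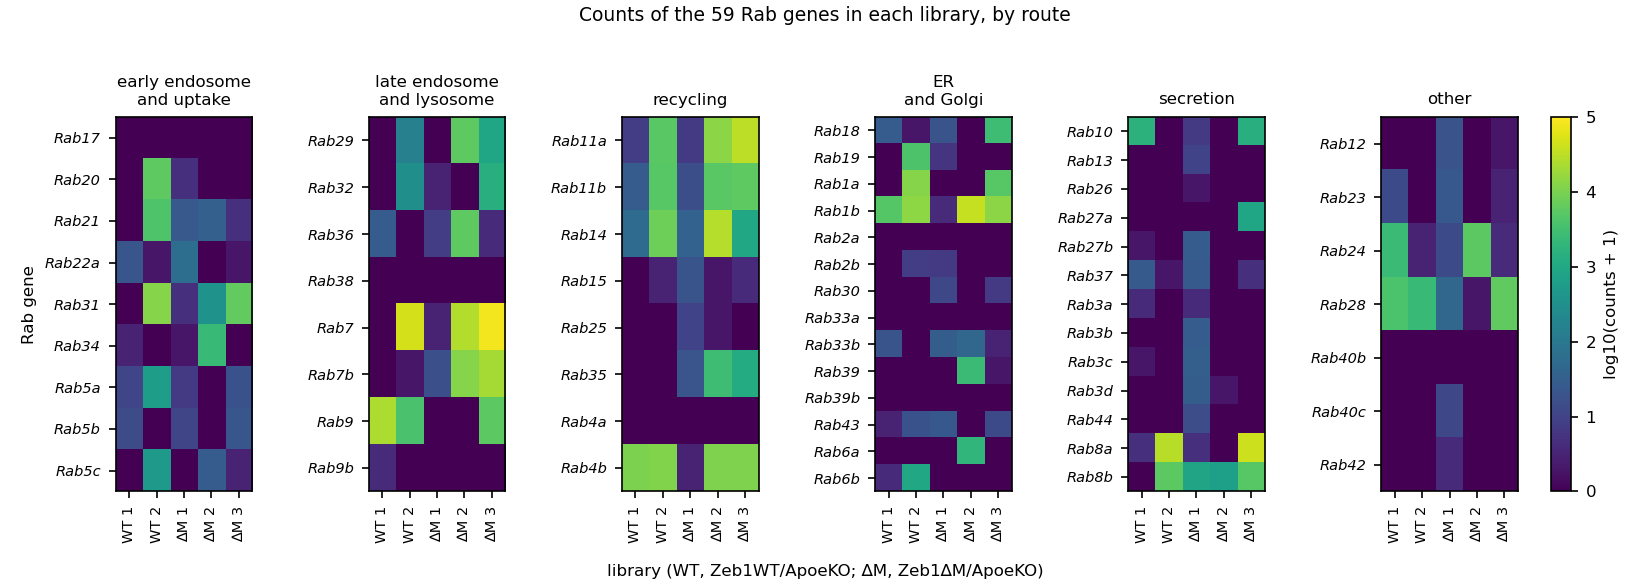
Heat map of log10(counts + 1) for the 59 Rab genes (rows) in the 5 libraries (columns), in 1 panel for each route. The column of *Zeb1*∆M/*Apoe*KO replicate 1 is dark throughout, with 834 counts of *Rab8b* as its highest value, and 7 genes had no counts in any library.

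The library with the fewest counts on Rab genes, *Zeb1*∆M/*Apoe*KO replicate 1, had the most Rab genes above 3 counts. The libraries had 18 and 22 Rab genes above 3 counts in *Zeb1*WT/*Apoe*KO and 35, 19 and 25 in *Zeb1*∆M/*Apoe*KO, that is 20 ± 2.83 (SD, n = 2) and 26.3 ± 8.08 (SD, n = 3). The exact permutation test (two-sided) gave p = 0.4, and with 2 libraries against 3 it cannot go below 0.1. At 100 counts or more the numbers were 6 and 20 in *Zeb1*WT/*Apoe*KO and 1, 16 and 19 in *Zeb1*∆M/*Apoe*KO, so the replicate with the most Rab genes above 3 counts had the fewest at 100. The difference of the means was then −1 (two-sided exact permutation test, p = 0.9). At more than 3 counts the difference was 6.33 with all libraries, 2 without *Zeb1*∆M/*Apoe*KO replicate 1 and 0 without both replicates numbered 1. In that replicate 34 Rab genes were above 3 but below 100 counts, the highest of them at 62. For 10 Rab genes it was the sole library above 3 counts, among them *Rab3b*, *Rab3c*, *Rab3d* and *Rab27b*, secretory Rabs known from neurons and exocrine or other granule-bearing cells. These were 20.8% of the 48 Rab genes above 3 counts in any library, against 30.3% of protein-coding genes.

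**Figure D2:**
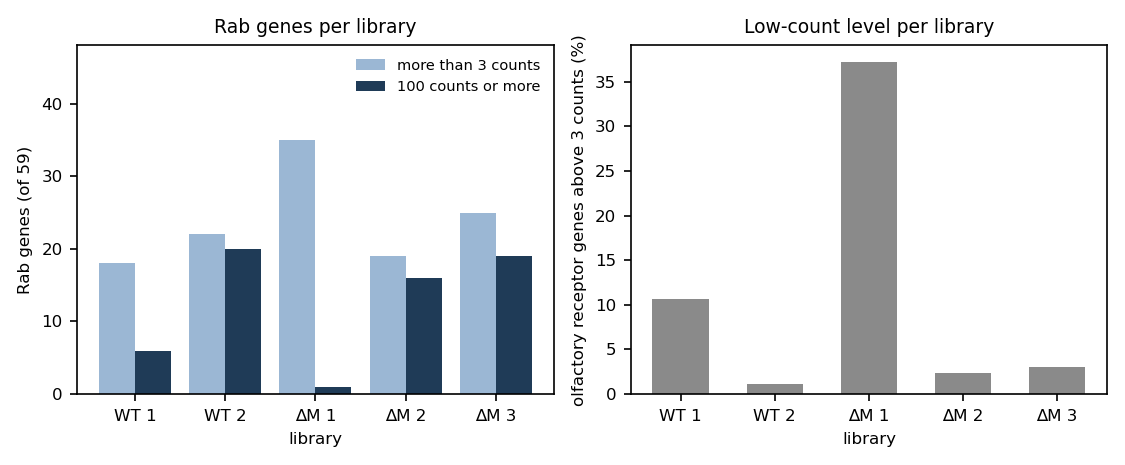
Left, the number of Rab genes with more than 3 counts (light bars) and with 100 counts or more (dark bars) in each library. Right, the percent of 1103 olfactory receptor genes with more than 3 counts. The library ∆M 1 has 35 Rab genes above 3 counts but 1 at 100, and the highest olfactory receptor share, 37.2%.

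Rab genes took 0.257% and 0.533% of protein-coding counts in *Zeb1*WT/*Apoe*KO and 0.00703%, 0.476% and 0.506% in *Zeb1*∆M/*Apoe*KO. The means were 0.395% ± 0.195 (SD, n = 2) and 0.33% ± 0.28 (SD, n = 3), and a two-sided exact permutation test gave p = 0.8. Without *Zeb1*∆M/*Apoe*KO replicate 1 the difference turned from −0.0653 to 0.096 percentage points, and without *Zeb1*WT/*Apoe*KO replicate 2 it was 0.0727. The 3 libraries with many genes at 100 counts lay close together, between 0.476% and 0.533%.

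In those 3 libraries, *Zeb1*WT/*Apoe*KO replicate 2 and *Zeb1*∆M/*Apoe*KO replicates 2 and 3, 9 Rab genes (15.3%) had 100 counts or more in each, against 6.52% of protein-coding genes. They were 4 recycling Rabs (*Rab4b*, *Rab11a*, *Rab11b* and *Rab14*), 2 late endosome and lysosome Rabs (*Rab7* and *Rab29*), the early endosome *Rab31*, the ER and Golgi *Rab1b* and the secretory *Rab8b*. *Rab11b* and *Rab4b* varied least, with highest to lowest ratios of 1.32 and 1.49 in TMM-normalized CPM (CPM after the trimmed-mean scaling of library sizes in edgeR). *Rab7* and *Rab1b* followed at 2.53 and 3.13, *Rab11a* had 4.1, and the other 4 genes spread by 10.3 to 41.9. Reaching 100 counts in any library were 30 Rab genes (50.8%), against 30.0% of protein-coding genes.

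Detection was patchy between libraries of the same genotype, also for some of these 9 genes in the replicates numbered 1. Of the 22 Rab genes with 100 counts or more in a *Zeb1*WT/*Apoe*KO library, 13 had 3 counts or fewer in the other. Of the 24 with 100 or more in a *Zeb1*∆M/*Apoe*KO library, 17 had 3 or fewer in another. The same shares were not taken over all protein-coding genes. Of the 30 that reached 100 anywhere, 12 did so in a single library, which is 40%, against 46.2% of the protein-coding genes that reached 100. By this measure the Rab genes were no patchier than other genes. No Rab gene at 3 counts or fewer in a library can therefore be called absent from those macrophages.

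The plainest view of the uptake route is the *Rab5* family, the regulators of early endosome fusion. *Rab5a* had 10 and 634 counts in *Zeb1*WT/*Apoe*KO and 6, 0 and 17 in *Zeb1*∆M/*Apoe*KO. *Rab5b* had 13 and 0 counts in *Zeb1*WT/*Apoe*KO and 10, 0 and 21 in *Zeb1*∆M/*Apoe*KO. *Rab5c* had 0 and 494 counts in *Zeb1*WT/*Apoe*KO and 0, 27 and 2 in *Zeb1*∆M/*Apoe*KO. Of the 5 libraries, *Rab5a* and *Rab5c* thus reached 100 counts in *Zeb1*WT/*Apoe*KO replicate 2 alone, *Rab5b* did not exceed 21 in any library, and the genotypes overlapped for all members of the family on the scale used for the tests, though not for *Rab5a* when counts were scaled to library totals alone. Of the 9 early endosome and uptake Rabs, 6 reached 100 counts in some library and 1, *Rab31*, did so in the 3 better-counted ones. *Rab31*, a relative of *Rab22a* that acts between the trans-Golgi network and endosomes, had 0 and 12276 counts in *Zeb1*WT/*Apoe*KO and 4, 364 and 6345 in *Zeb1*∆M/*Apoe*KO. The phagosome gene *Rab20* and the integrin-traffic gene *Rab21* reached 100 counts in *Zeb1*WT/*Apoe*KO replicate 2 alone, with 5834 and 4271, and *Rab34*, linked to lysosome positioning, in *Zeb1*∆M/*Apoe*KO replicate 2 alone, with 2290. That last library also held the fibroblast marker *Dcn*, whose part in the counts of *Rab34* was not tested.

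Late endosome and lysosome Rabs took 50.7% and 30% of Rab counts in *Zeb1*WT/*Apoe*KO and 1.85%, 31.7% and 45% in *Zeb1*∆M/*Apoe*KO. This was the largest share of the 6 groups of Rabs in 3 libraries, but not in *Zeb1*∆M/*Apoe*KO replicates 1 and 2. *Rab7*, needed for the maturation of late endosomes and their fusion with lysosomes, had 0 and 48194 counts in *Zeb1*WT/*Apoe*KO and 2, 26842 and 79894 in *Zeb1*∆M/*Apoe*KO. It was high in the 3 better-counted libraries of both genotypes and at or near 0 in the replicates numbered 1. Per length it was the highest of all Rab genes, with a mean of 285 RPKM (counts scaled to exon length in kilobases and to total counts) over the 5 libraries. Its genotype means were 267 ± 377 RPKM (SD, n = 2) and 297 ± 302 (SD, n = 3). *Rab9*, which returns mannose 6-phosphate receptors from late endosomes to the Golgi, had 24033 and 3689 counts in *Zeb1*WT/*Apoe*KO and 0, 0 and 5461 in *Zeb1*∆M/*Apoe*KO. It had the highest Rab count of *Zeb1*WT/*Apoe*KO replicate 1, where *Rab7* had none, and the genotypes overlapped. *Rab32*, of lysosome-related organelles and mitochondria, had 0 and 308 counts in *Zeb1*WT/*Apoe*KO and 2, 0 and 1408 in *Zeb1*∆M/*Apoe*KO. *Rab29*, which acts at the trans-Golgi network and lysosomes, had 0 and 148 counts in *Zeb1*WT/*Apoe*KO and 0, 5686 and 882 in *Zeb1*∆M/*Apoe*KO. Both had 0 counts in *Zeb1*WT/*Apoe*KO replicate 1 and overlapped between genotypes. *Rab38*, best known from melanosomes, had no counts in any library.

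In the recycling route, 4 of 8 Rabs reached 100 counts in each of the 3 better-counted libraries, and 5 of 8 did so in some library, against 6 of 8 late endosome and lysosome Rabs. *Rab4b*, a gene of fast recycling from early endosomes, had 10287 and 11067 counts in *Zeb1*WT/*Apoe*KO and 2, 10648 and 10863 in *Zeb1*∆M/*Apoe*KO. It was thus high in every library but *Zeb1*∆M/*Apoe*KO replicate 1, and its paralog *Rab4a* had no counts in any. Per length, *Rab4b* had 211 ± 68.7 RPKM (SD, n = 2) in *Zeb1*WT/*Apoe*KO and 86.7 ± 77.9 (SD, n = 3) in *Zeb1*∆M/*Apoe*KO. *Rab11a* had 25.6 ± 36 and 112 ± 105 RPKM. Both were among the 5 Rab genes with the highest mean RPKM, which were *Rab7*, *Rab1b*, *Rab9*, *Rab4b* and *Rab11a* in this order, at 285, 169, 161, 136 and 77.2 RPKM. The mean of *Rab9* rested on *Zeb1*WT/*Apoe*KO replicate 1, where it had 683 RPKM, and without that library it was 30.7 RPKM, below *Rab8a* at 90 RPKM. *Rab8a* also stood above *Rab11a* without *Zeb1*∆M/*Apoe*KO replicate 2 (90 and 64.8 RPKM) or replicate 3 (45.3 and 44.5 RPKM), and without replicate 2 of that genotype *Rab1b* was at 101 RPKM. The gaps between neighbours in that order were smaller than the spread between libraries.

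Between the ER and the Golgi, *Rab1b* was the Rab present in most libraries. It had 4823 and 14318 counts in *Zeb1*WT/*Apoe*KO and 3, 35685 and 13372 in *Zeb1*∆M/*Apoe*KO. Its paralog *Rab1a* had 0 and 12285 counts in *Zeb1*WT/*Apoe*KO and 0, 0 and 4929 in *Zeb1*∆M/*Apoe*KO. Both paralogs serve the same step of export from the ER, and *Rab1b* was found where *Rab1a* was not in *Zeb1*WT/*Apoe*KO replicate 1 and *Zeb1*∆M/*Apoe*KO replicate 2. *Rab2a*, of ER to Golgi traffic and lysosome delivery, had no counts in any library. *Rab6a*, of retrograde Golgi traffic, was counted in *Zeb1*∆M/*Apoe*KO replicate 2 alone, with 1980 counts against 0 in each of the other 4. *Rab18*, found on lipid droplets and the ER, had 28 and 1 counts in *Zeb1*WT/*Apoe*KO and 18, 0 and 2760 in *Zeb1*∆M/*Apoe*KO. Each of *Rab6a* and *Rab18* was therefore well counted in 1 library only.

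Of the 13 secretory Rabs, *Rab8b* reached 100 counts in the most libraries, 4 of 5. *Rab8b*, of transport from the Golgi to the plasma membrane, had 0 and 5452 counts in *Zeb1*WT/*Apoe*KO and 834, 660 and 5096 in *Zeb1*∆M/*Apoe*KO. It was the only Rab gene at 100 counts or more in *Zeb1*∆M/*Apoe*KO replicate 1. *Rab8a*, its paralog, had 4 and 29323 counts in *Zeb1*WT/*Apoe*KO and 4, 0 and 42331 in *Zeb1*∆M/*Apoe*KO. *Rab10*, of exocytosis and ER tubules, had 1613 and 0 counts in *Zeb1*WT/*Apoe*KO and 6, 0 and 1440 in *Zeb1*∆M/*Apoe*KO. Of the granule Rabs, *Rab27a* had 0 and 0 counts in *Zeb1*WT/*Apoe*KO and 0, 0 and 915 in *Zeb1*∆M/*Apoe*KO. *Rab3d* had 0 and 0 counts in *Zeb1*WT/*Apoe*KO and 29, 1 and 0 in *Zeb1*∆M/*Apoe*KO. In *Zeb1*∆M/*Apoe*KO replicate 1, secretory Rabs took 69.2% of all Rab counts, mostly from *Rab8b*, against 0.412% to 20.5% in the other libraries.

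The study compared macrophages with and without *Zeb1*, and edgeR called no Rab gene as different between the genotypes. A gene could be tested only where it passed the low-count filter of edgeR (a minimum count of 10 in enough libraries), which 29 Rab genes did. The quasi-likelihood test of edgeR, adjusted by Benjamini-Hochberg over 7905 genes, called 0 of these 29, against 0 of all genes (0%). At an unadjusted p under 0.05 there were 0 Rab genes, against 1.09% of genes. Among the Rab genes the adjusted p was 1 at the lowest. The median log2 fold change (*Zeb1*∆M/*Apoe*KO over *Zeb1*WT/*Apoe*KO) of the 29 was 0.31, with 17 above 0 and 12 below, against 0.78 over all genes tested. It depended on single libraries, at 3.65 and 6.41 without *Zeb1*WT/*Apoe*KO replicates 1 and 2 and 0.10, 0.11 and 0.71 without *Zeb1*∆M/*Apoe*KO replicates 1, 2 and 3, each over the genes that then passed the filter. The Rab median was 0.80 with another scaling of library sizes (RLE), 0.72 without the filter and −0.06 with the replicate number as a block. Standard errors, derived from the fold change and the F statistic of the test, ran from 3.03 to 7.86 on the log2 scale. The common dispersion, the squared coefficient of variation between replicates, was 6.44, so that differences of several log2 units lay within the error. DESeq2, the tool the study used, gave an adjusted p to 21 Rab genes and called 2, *Rab7b* and *Rab35*, against 12.1% of all genes given one, and limma-voom called 0 Rab genes and found 3 at an unadjusted p under 0.05, with 0.392% and 5.10% of genes.

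**Figure D3:**
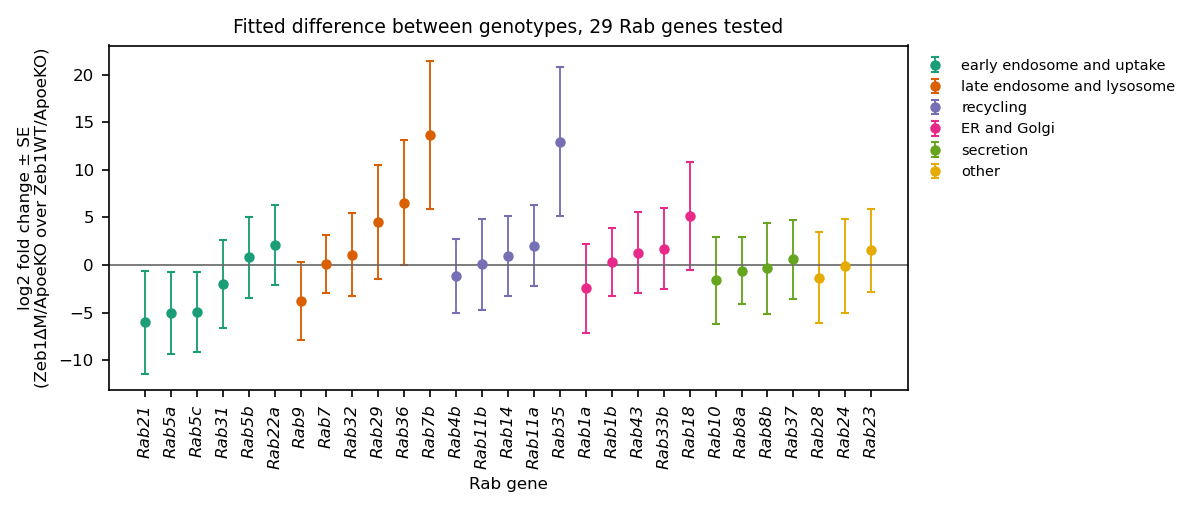
Fitted log2 fold change (*Zeb1*∆M/*Apoe*KO over *Zeb1*WT/*Apoe*KO) of the 29 Rab genes tested, coloured by route. Bars show a standard error derived as the absolute log2 fold change over the square root of edgeR's F statistic. Values run from −6.04 to 13.66, and *Rab7b* and *Rab35* are the highest, with the widest bars.

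The counts of 3 Rab genes (10.3% of the 29) did not overlap between the genotypes on the scale of TMM-normalized CPM, against 11.2% of all genes tested. *Rab7b*, a late endosome and lysosome Rab known to act in the return of receptors to the trans-Golgi network and in the lysosomal breakdown of Toll-like receptors, had 0 and 1 counts in *Zeb1*WT/*Apoe*KO and 16, 12415 and 21554 in *Zeb1*∆M/*Apoe*KO. *Rab35*, of fast recycling to the plasma membrane and phagosome formation, had 0 and 0 counts in *Zeb1*WT/*Apoe*KO and 20, 2763 and 1184 in *Zeb1*∆M/*Apoe*KO. Both were higher in each *Zeb1*∆M/*Apoe*KO library, which was so for 6.68% of genes tested, but their counts in *Zeb1*∆M/*Apoe*KO replicate 1 lay below the 95th percentile of its olfactory receptor genes, 27 counts. Both passed the low-count filter only through the *Zeb1*∆M/*Apoe*KO libraries, where they were high, so a gene of this kind had to differ to be tested at all, and their folds and tests are given as a description. *Rab4b* was lower in each *Zeb1*∆M/*Apoe*KO library, as were 4.54% of genes tested. The set of non-overlapping genes depended on which libraries were used. Without *Zeb1*WT/*Apoe*KO replicate 1 it held 14 of the 29 Rab genes, against 39.4% of genes, without replicate 2 of that genotype it held 13, against 29.5%, and without both replicates numbered 1 it held 18, against 53.4%.

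For *Rab7b* the mean was 0.0145 ± 0.0205 TMM-normalized CPM (SD, n = 2) in *Zeb1*WT/*Apoe*KO and 240 ± 218 TMM-normalized CPM (SD, n = 3) in *Zeb1*∆M/*Apoe*KO. Against the floor of 3 counts per library the latter mean was at least 2210-fold higher. This bound was carried by *Zeb1*∆M/*Apoe*KO replicates 2 and 3, at 290 and 429 TMM-normalized CPM, against 1.32 in replicate 1. The fitted log2 fold change of *Rab7b*, which depends on the small prior count that the fit adds, was 13.66 (SE 7.76, adjusted p = 1, edgeR), and 14.18 without *Zeb1*∆M/*Apoe*KO replicate 1. *Rab35* was at 29.9 ± 32 TMM-normalized CPM (SD, n = 3) in *Zeb1*∆M/*Apoe*KO, from 1.65, 64.6 and 23.6 in replicates 1, 2 and 3. That mean was at least 276-fold over the same floor, a bound that rests mostly on replicate 2. The fitted log2 fold change of *Rab35* was 12.97 (SE 7.86, adjusted p = 1, edgeR), and 13.68 without *Zeb1*∆M/*Apoe*KO replicate 1. Exact permutation tests (two-sided) gave p = 0.2 for each of *Rab7b*, *Rab35* and *Rab4b*. DESeq2 gave adjusted p = 0.00109 for *Rab7b* and 0.0115 for *Rab35*, limma-voom gave 0.12 and 0.489, and edgeR on the other 3 libraries, with a lone *Zeb1*WT/*Apoe*KO library assumed to vary like the rest, gave 0.742 for *Rab7b*, with 0.0249% of genes called. *Rab4b* was at 347 ± 36.3 TMM-normalized CPM (SD, n = 2) in *Zeb1*WT/*Apoe*KO and 155 ± 135 TMM-normalized CPM (SD, n = 3) in *Zeb1*∆M/*Apoe*KO. Its log2 fold change was −1.16 (SE 3.84, adjusted p = 1, edgeR) and −0.80 without *Zeb1*∆M/*Apoe*KO replicate 1. Over all alternatives it ran from −5.62, with the replicate number as a block, to −0.31, without both replicates numbered 1.

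**Figure D4:**
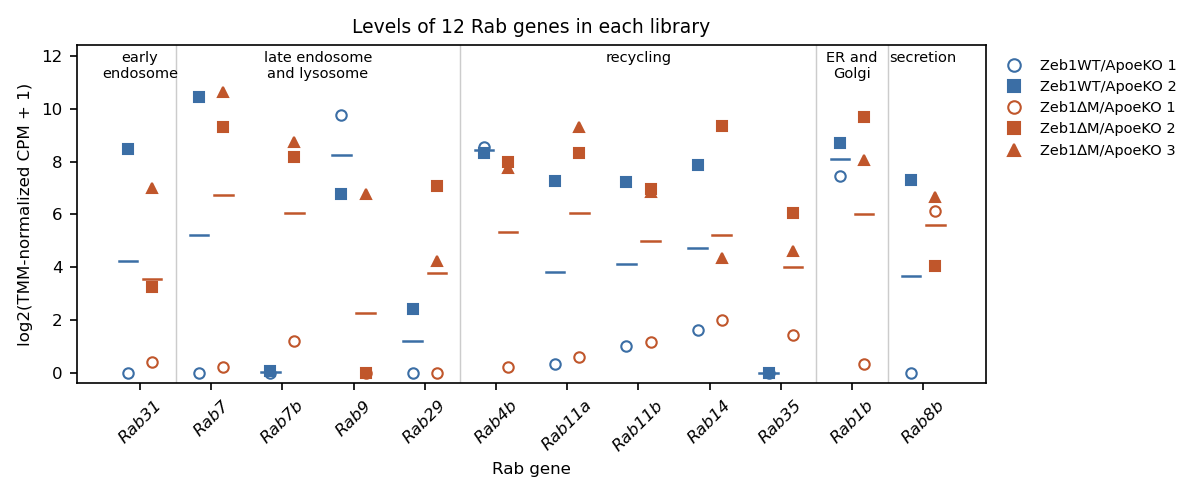
Levels of 12 Rab genes as log2(TMM-normalized CPM + 1), by route, with 1 point for each library, open circles for the replicates numbered 1 and a line for the mean of each genotype. Both *Zeb1*WT/*Apoe*KO points of *Rab7b* and *Rab35* are near 0, and for *Rab11a*, *Rab11b* and *Rab14* the open circles lie below the filled points of both genotypes.

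The 3 genes detected in all 5 libraries had log2 fold changes smaller than their standard errors. These were 2.04 (SE 4.25) for *Rab11a*, 0.09 (SE 4.79) for *Rab11b* and 0.95 (SE 4.21) for *Rab14*, each with adjusted p = 1 in edgeR. Leaving out 1 library at a time gave 1.04 to 10.29 for *Rab11a*, the ends being without *Zeb1*∆M/*Apoe*KO replicate 3 and *Zeb1*WT/*Apoe*KO replicate 2. It gave −0.78 to 6.31 for *Rab11b*, the ends being without *Zeb1*WT/*Apoe*KO replicates 1 and 2, and −3.34 to 6.81 for *Rab14*, the ends being without *Zeb1*∆M/*Apoe*KO replicate 2 and *Zeb1*WT/*Apoe*KO replicate 2. Among the lowest values, *Rab21* had −6.04, *Rab5a* −5.07 and *Rab5c* −4.96, each carried by *Zeb1*WT/*Apoe*KO replicate 2.

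Some Rab counts cannot be assigned to 1 gene with certainty. The kit does not mark strand, and *Rab24*, linked to autophagy, shares 1258 exonic bases with *Prelid1* on the opposite strand, which had 36540 and 5200 counts in *Zeb1*WT/*Apoe*KO and 26, 23798 and 63 in *Zeb1*∆M/*Apoe*KO. *Rab24* had 2564 and 2 counts in *Zeb1*WT/*Apoe*KO and 12, 5410 and 3 in *Zeb1*∆M/*Apoe*KO, so it was high where *Prelid1* was highest. *Rab6a* shares 708 bases with *Mrpl48*, which had 1705 counts in *Zeb1*WT/*Apoe*KO replicate 2 and 0 in *Zeb1*∆M/*Apoe*KO replicate 2, where *Rab6a* was counted. *Rab11b* shares 329 bases with *Gm17251* on the opposite strand, which had 0 and 26 counts in *Zeb1*WT/*Apoe*KO and 0, 0 and 2408 in *Zeb1*∆M/*Apoe*KO. *Rab10* shares 143 bases with its antisense *Rab10os*, which had 161 and 0 counts in *Zeb1*WT/*Apoe*KO and 33, 5 and 4745 in *Zeb1*∆M/*Apoe*KO. *Rab4b* shares 1280 bases with *Gm21983*, which had no counts. Overlapping parts of a gene and its partner cannot be told apart in these counts. Reads of close paralogs such as *Rab11a* and *Rab11b* can also be split by the counting, and the processed pseudogene *Rab7-ps1* had at most 94 counts.

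The proteins that load, switch and read Rabs were also counted unevenly across the libraries. Of 124 listed regulators and effectors, 6 had more than 3 counts in all 5 libraries, against 4.34% of all protein-coding genes. None had 100 in all 5, a level reached by 1.26% of protein-coding genes. The 6 were the exchange factors *Gapvd1*, *Dennd2d*, *Dennd5a* and *Dennd5b* and the GTPase-activating proteins *Tbc1d10b* and *Tbc1d17*. *Gdi2*, which extracts inactive Rabs from membranes, had 32920 and 9311 counts in *Zeb1*WT/*Apoe*KO and 3, 13778 and 5663 in *Zeb1*∆M/*Apoe*KO. Summed over the list, the level was 2510 to 3970 CPM in 4 libraries and 159 CPM in *Zeb1*∆M/*Apoe*KO replicate 1, the same library in which the Rab genes were low. Of the 62 tested, edgeR called 0, against 0% of all genes, and 0 had an unadjusted p under 0.05, against 1.09%. DESeq2 gave an adjusted p to 59 of the listed genes and called 5, against 12.1% of all genes. Their median log2 fold change was 1.32, against 0.78 over all genes. Between genotypes 9 (14.5%) did not overlap, against 11.2% of all genes, with 4 higher (6.45%) and 5 lower (8.06%) in *Zeb1*∆M/*Apoe*KO, against 6.68% and 4.54%. The 4 higher ones were *Rab3gap2*, *Rab3ip*, *Ric1* and *Tbc1d4*. Of these, *Rab3ip*, *Ric1* and *Tbc1d4* had 0 counts in each *Zeb1*WT/*Apoe*KO library and passed the filter only through *Zeb1*∆M/*Apoe*KO, with 13, 17 and 9 counts in *Zeb1*∆M/*Apoe*KO replicate 1, below the 95th percentile of its olfactory receptor genes. *Rab3ip* and *Tbc1d4* each had 1 count in a further library of that genotype, under the floor, so they are named as a description. *Rab3gap2*, with 10 and 0 counts in *Zeb1*WT/*Apoe*KO, also needed the *Zeb1*∆M/*Apoe*KO libraries to pass. The 5 lower ones were *Dennd5b*, *Ehbp1l1*, *Gapvd1*, *Plin3* and *Rabgap1l*. Of these, *Plin3* and *Rabgap1l* had 6 counts or fewer in *Zeb1*∆M/*Apoe*KO replicates 2 and 3. They passed the filter only through *Zeb1*WT/*Apoe*KO, where they were high, so they too are named as a description. *Ehbp1l1*, a RAB8 effector of recycling tubules, had 4633 and 5793 counts in *Zeb1*WT/*Apoe*KO and 0, 135 and 980 in *Zeb1*∆M/*Apoe*KO. *Ric1*, part of the exchange factor for RAB6, had 0 and 0 counts in *Zeb1*WT/*Apoe*KO and 17, 386 and 522 in *Zeb1*∆M/*Apoe*KO.

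ZEB1 is a zinc finger protein that binds E-boxes of the form CACCTG, or CAGGTG on the other strand, so these letters were looked for in the RefSeq promoter windows of GRCm38.p6, from 250 bases before to 50 after a gene's start. Of the 59 Rab genes, 48 had a window, and 10 of these (20.8%) held the motif, against 22.6% of all genes with a window. Per window the shares were 16.7% of 60 and 20.2% of 32851. The windows of *Rab11a*, *Rab11b*, *Rab14*, *Rab4b*, *Rab1b*, *Rab7* and *Rab8b* held none. Genes with the motif were *Rab3a*, *Rab15*, *Rab17*, *Rab19*, *Rab22a*, *Rab23*, *Rab25*, *Rab27a*, *Rab5c* and *Rab9*. Of the endosomal and recycling Rabs with a window and 100 counts or more in some library, only *Rab5c* and *Rab9* held it. Each of them had 1, at bases −26 and −198 from the start. A match is a string of letters and not a binding site, and its absence says only that these letters are not in this window. The windows of these 2 genes, with the motif in capitals, and of *Rab14*, which was detected in all 5 libraries and has no motif, are shown 5′ to 3′ on the strand of the gene, which is the minus strand in all cases. They lie at chr11:100738166-100738465 (*Rab5c*), chrX:166479818-166480117 (*Rab9*) and chr2:35201071-35201370 (*Rab14*).
Rab5c: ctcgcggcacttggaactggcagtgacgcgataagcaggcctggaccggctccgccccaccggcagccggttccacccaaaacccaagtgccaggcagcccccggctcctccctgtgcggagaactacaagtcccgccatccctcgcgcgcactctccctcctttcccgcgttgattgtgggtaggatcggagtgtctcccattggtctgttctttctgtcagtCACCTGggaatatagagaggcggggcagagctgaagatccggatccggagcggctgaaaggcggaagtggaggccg
Rab9: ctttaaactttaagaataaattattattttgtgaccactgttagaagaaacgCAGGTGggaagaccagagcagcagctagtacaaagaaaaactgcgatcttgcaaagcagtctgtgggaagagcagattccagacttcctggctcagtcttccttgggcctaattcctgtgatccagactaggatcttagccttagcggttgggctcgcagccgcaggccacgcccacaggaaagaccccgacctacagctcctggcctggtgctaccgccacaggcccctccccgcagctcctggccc
Rab14: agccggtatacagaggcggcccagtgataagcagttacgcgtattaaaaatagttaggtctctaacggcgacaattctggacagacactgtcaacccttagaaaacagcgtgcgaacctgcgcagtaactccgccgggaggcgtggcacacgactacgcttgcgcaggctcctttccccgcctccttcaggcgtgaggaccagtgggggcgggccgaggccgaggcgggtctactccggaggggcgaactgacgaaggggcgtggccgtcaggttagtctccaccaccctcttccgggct
The counts behind them were those given above, high in *Zeb1*WT/*Apoe*KO replicate 2 alone for *Rab5c*, high in 3 libraries for *Rab9*, and high in 3 for *Rab14*.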

How the data were processed

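Aortic macrophages were profiled in 2 libraries labelled WT and 3 labelled KO, made with SMART-Seq v4. Paired-end reads were mapped by the authors to GRCm38 with STAR 2.5.3a, and genes of the GENCODE mouse annotation were quantified with RSEM 1.3.0. The deposited values are expected counts given as whole numbers, without normalization, for 55487 genes, with 20118545 to 50649912 counts per library. Unstranded reads and shared sequence can move counts between overlapping genes and paralogs. Members are fixed by a rule on symbols, but this rule and the gene lists were chosen with earlier results of these data known.

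The filter filterByExpr with a minimum count of 10 left 7905 genes. The main test was edgeR 4.0.16 (R 4.3.3) and its quasi-likelihood test without covariates, on TMM-normalized libraries (factors 1.42, 1.06, 0.515, 1.25 and 1.03). A call is an adjusted p (Benjamini-Hochberg) under 0.05. The standard error of an edgeR fold change is its absolute log2 value divided by the square root of the F statistic. For genes at or near 0 counts in a genotype it therefore depends on the prior count, as the fold does. The study used DESeq2, here an alternative (1.42.0, default options, genes without an adjusted p left out), as was limma-voom (limma 3.58.1). edgeR was set as the main test for counts. Tests were checked on simulated data, drawn from a mean profile shared by all libraries. No simulated library had the raised low-count level of *Zeb1*∆M/*Apoe*KO replicate 1, so the check does not cover that feature. Single values per library were compared with exact permutation tests. A gene was called detected above 3 counts. RPKM used total counts and exon lengths of GENCODE M21, also on GRCm38, which held all 59 members and 55141 of the identifiers without version. Other alternatives were RLE factors, no filter, the replicate number as a block, other detection thresholds, libraries thinned to the smallest, and each library left out. Leaving out both replicates numbered 1, the per-length order with each library left out, the thresholds of 100 counts and the olfactory receptor level were added after seeing the data.

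The rule for named genes gives counts for members above 3 counts in all libraries, members that do not overlap between genotypes, the 5 highest per length and a list of route markers. Of the regulators and effectors it takes those detected in all libraries and those that do not overlap. *Rab20*, *Rab21*, *Rab24*, *Rab29*, *Rab31*, *Rab34* and *Rab8b*, *Gdi2* and overlapping genes were chosen after their values were seen. Each member was put in 1 route although many act in several. Python 3.11.15 and matplotlib 3.10.9 were used. Reads were not analysed here.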

Additional observations from a re-analysis of the deposited data

How the results depend on the processing

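No Rab gene was called by edgeR under RLE size factors, without the low-count filter, with the replicate number as a block, or without any 1 library. With DESeq2, 2 Rab genes, 5 regulators and effectors and 790 genes in all were called, and limma-voom called 31 genes in all. Without both replicates numbered 1, edgeR called 2 genes, none of them a Rab gene. The replicate block gave 0 called Rab genes and a median log2 fold change of −0.06 for those tested. The labels give the numbers 1 and 2 to both genotypes but no shared origin, and the difference of replicates 1 and 2 correlated across genes between the genotypes at 0.18. RLE factors moved the median of all genes from 0.78 to 1.24. The Rab median lay between 0.10 and 6.41 with 1 library left out, highest without *Zeb1*WT/*Apoe*KO replicate 2, and was 3.65 without replicate 1 of that genotype. Detected in all libraries were 7 Rab genes at more than 0 counts, 2 at 10 counts or more, 0 at 100 counts, 0 above the olfactory receptor level, 3 to 6 with 1 library left out, and 10 without both replicates numbered 1. Non-overlapping Rab genes numbered 5 of 52 without the filter, against 5.40% of 27091 genes, and 4 to 14 of 29 with 1 library left out. They were 14 and 13 without *Zeb1*WT/*Apoe*KO replicates 1 and 2, against 39.4% and 29.5% of genes tested, 7, 4 and 6 without *Zeb1*∆M/*Apoe*KO replicates 1, 2 and 3, against 24.2%, 22.5% and 20.5%, and 18 without both replicates numbered 1, against 53.4%. The difference in the number detected per library was −1 at 100 counts and 0 without both replicates numbered 1, and 2 to 10 with 1 library left out. The difference in the Rab share of coding counts ran from −0.203 to 0.096 with 1 library left out. *Rab11b* reversed with 1 library left out (−0.78 to 6.31) and without both replicates numbered 1 (−0.17), and *Rab14* ran from −3.34 to 6.81. *Rab11a* and *Rab4b* kept their sign in all 11 alternatives, while the sign of *Rab7b* and *Rab35* was fixed by WT counts of 1 or 0. Sizes moved, *Rab11a* between 1 and 10.29 (the latter without *Zeb1*WT/*Apoe*KO replicate 2), *Rab4b* between −5.62 (replicate block) and −0.31, *Rab7b* between 11.75 and 16.04 and *Rab35* between 9.98 and 13.91. Thinned to the smallest library, 3 Rab genes were again detected in all 5. Of the 59 Rab genes 29 never reached 100 counts, and the cause was not tested.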
